A study of Homo sapiens with 7 samples.

Results

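Transcripts of 10 proteins of the cardiac Z-disc (ACTN2, LDB3, CSRP3, TCAP, MYOZ2, NEBL, FLNC, PDLIM5, SYNPO2L and DES) were followed in human cardiomyocytes after an antisense oligonucleotide (ASO) against MYH7B. The 10 genes were taken by symbol from a deposited table of 60234 genes, and each symbol matched 1 row. The cells were WTC-11 cardiomyocytes, grown from an established induced pluripotent stem cell line by small-molecule differentiation and matured for 35 days. Every culture then took up an ASO passively at 2 uM for 96 h, either a scrambled ASO (3 libraries) or the MYH7B ASO (4 libraries). Values are TPM, an abundance corrected for transcript length and scaled to the same total in every library. The deposited column of MYH7B ASO replicate 1 is out of row order, so comparisons use replicates 2 to 4 of that group against scrambled ASO replicates 1 to 3, and the reordered replicate 1 is given apart. All libraries come from 1 cell line, and nothing in the labels says whether replicates were separate differentiations, so the p-values measure only the spread between these libraries, which may be technical.

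The Z-disc is the border between neighbouring sarcomeres, where actin filaments of opposite polarity are tied together. Alpha-actinin forms the cross-links, PDZ-LIM and LIM proteins bind alpha-actinin and relay strain, telethonin and myozenin attach titin and calcineurin, and desmin filaments join the Z-discs of adjacent myofibrils. Mutations in several of these genes cause cardiomyopathy. Transcripts were measured, not proteins, and gene-level values cannot tell isoforms apart.

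The target was checked first. MYH7B stood at 23.0, 36.5 and 25.1 TPM with the scrambled ASO, against 9.30, 5.65 and 6.31 TPM in MYH7B ASO replicates 2 to 4. Each of the 6 libraries compared contained between 15290 and 16207 genes at 1 TPM or more. Mitochondrially encoded genes made up 27.4% to 33.2% of their TPM with the scrambled ASO and 31.2% to 33.6% with the MYH7B ASO. TPM retains no sequencing depth, so no counting interval can be given. All 13 cardiomyocyte markers outside the Z-disc were expressed, and 1 of them, ACTC1 (cardiac actin), fell (limma adjusted p = 0.0209). Their summed level was 16372 to 18175 TPM with the scrambled ASO and 14383 to 16126 TPM with the MYH7B ASO, without overlap. MYL7 (group means 5204.4 and 4158.6 TPM) and ACTC1 (3647.2 and 2307.6 TPM) weighed most in that sum with the scrambled ASO. Of the 13, 10 had a log2 fold change below 0 and 3 above it. RYR2 fell furthest, to 47.6% of its scrambled ASO mean (34.1 ± 5.95 and 16.3 ± 3.32 TPM, SD, n = 3), and was not called (limma adjusted p = 0.0536). The MYH7B ASO libraries lay wholly below the scrambled ASO libraries for 5 of the 13 (TNNI3, ACTC1, MYL7, RYR2 and PLN), against 14.1% of all tested genes. TNNI1 (138.7% of its scrambled ASO mean) lay wholly above the scrambled ASO libraries, as did 7.11% of all tested genes. NKX2-5 (138.0%) and MYH6 (108.8%) had overlapping groups. The skeletal muscle marker MYH1 was listed at 0 in all 6 libraries, PAX7 reached at most 0.0297 TPM, and MYOD1 and MYOG reached at most 1.39 and 1.02 TPM. The muscle creatine kinase CKM, which heart muscle also makes, had 338.9 to 467.4 TPM with the scrambled ASO. Of 4 endothelial markers, PECAM1, CDH5 and VWF were near 0, and KDR, which cardiac progenitors also make, reached at most 9.82 TPM. Fibroblast markers, by contrast, were present and differed. Of 8, 6 had a lower mean, 5 of them wholly below the scrambled ASO libraries, and 2 (COL1A2 and LUM) fell by the test below. The other 2, PDGFRA (23.7 ± 4.01 and 36.3 ± 4.27 TPM, SD, n = 3) and TCF21 (8.40 ± 1.62 and 14.4 ± 3.42 TPM), lay wholly above the scrambled ASO libraries and were not called (limma adjusted p = 0.152 and 0.168). The summed fibroblast level, most of it from the collagens COL1A1, COL1A2 and COL3A1, was 2881 to 5173 TPM with the scrambled ASO, highest in replicate 3, and 1344 to 2071 TPM with the MYH7B ASO. Of 4 smooth muscle markers, 3 had a lower mean and lay wholly below the scrambled ASO libraries, and MYH11 fell. CNN1 was at 118.1% of its scrambled ASO mean with overlapping groups. The summed smooth muscle level was 933.6 to 1329.6 TPM against 543.5 to 722.8 TPM. Whether the share of these cells bears on the Z-disc values was not tested, and in bulk RNA fewer cells of a type and less RNA per cell cannot be told apart.

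SYNPO2L fell most among the 10 genes, to 43.9% of its scrambled ASO level, and it was the only 1 of the 10 that passed the test across all genes. CSRP3, ACTN2 and DES stood at 66.4%, 71.4% and 73.9%. The groups of these 4 genes did not overlap, while those of the other 6 did. The test was limma on log2(TPM + 1), with Benjamini-Hochberg adjustment over the 15988 genes whose mean reached 1 TPM. A gene is referred to as called at an adjusted p under 0.05. All 10 genes passed the filter. Across all genes 1.48% were called lower with the MYH7B ASO and 0.181% higher. That split depends on the scaling, since 0.932% were called lower (149 genes) and 1.03% higher (165 genes) when libraries were scaled to equal summed cardiomyocyte markers. The MYH7B ASO libraries lay wholly below the scrambled ASO libraries for 14.1%. The median log2 fold change was -0.20 over the 10 genes, with 8 below 0, and -0.04 over all tested genes, of which 54.8% were below 0. By the authors' deposited table, SYNPO2L and CSRP3 (2 of the 10) were lower at an adjusted p-value under 0.05, against 5.69% of its genes.

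**Figure D1:**
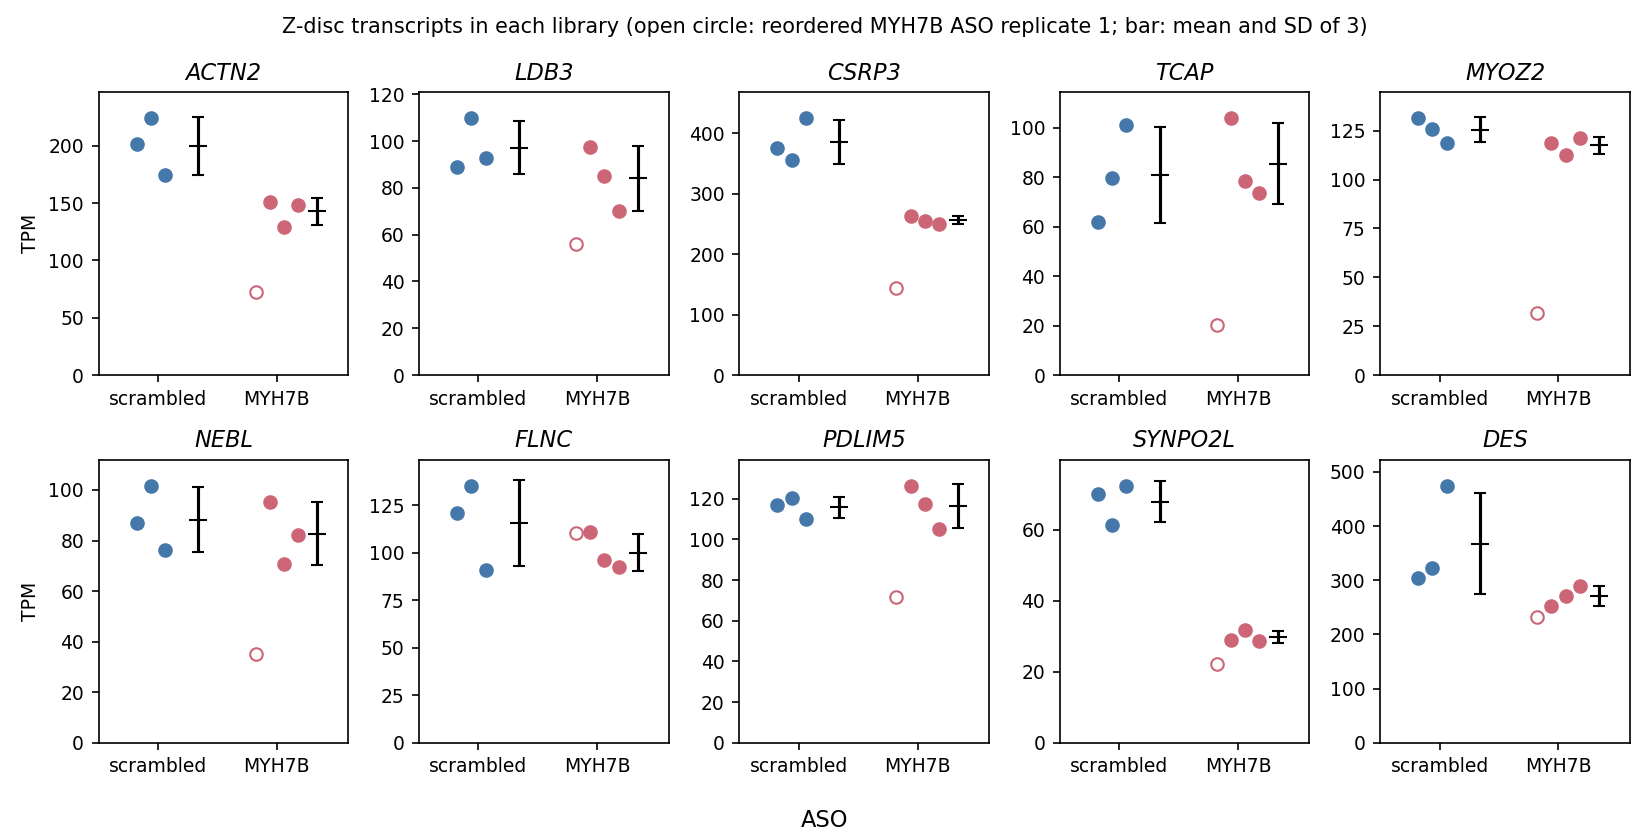
TPM (linear axis from 0) of each of the 10 Z-disc genes by ASO, 1 point per library, with the mean and SD of 3 libraries at the right of each group and the reordered MYH7B ASO replicate 1 as an open circle outside that mean. The groups are separate for SYNPO2L, CSRP3, ACTN2 and DES and overlap for the other 6 genes, and replicate 1 is the lowest MYH7B ASO library for all genes but FLNC.

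SYNPO2L encodes an actin- and alpha-actinin-binding protein of the synaptopodin family (also called CHAP) that sits at the Z-disc of heart and skeletal muscle. The gene spans positions 73644881 to 73663803 of chromosome 10 in GENCODE 29 on GRCh38, minus strand. Its level was 70.1, 61.3 and 72.4 TPM with the scrambled ASO and 28.9, 31.8 and 28.6 TPM with the MYH7B ASO. Every scrambled ASO library was therefore far above every MYH7B ASO library, and both groups were tight. Group means were 67.9 ± 5.88 and 29.8 ± 1.79 TPM (SD, n = 3). On the log2 scale SYNPO2L fell by 1.16, with standard error 0.14 and a 95% interval from -1.47 to -0.85 (limma adjusted p = 0.00817). This ranks 473 from the lowest of the 15988 tested genes. Its log2 fold change in the authors' deposited table was -1.04 (adjusted p-value 3.13e-13). SYNPO2L took 4.13% ± 0.376 (SD, n = 3) of the summed TPM of the 10 genes with the scrambled ASO and 2.32% ± 0.21 (SD, n = 3) with the MYH7B ASO. Leaving out MYH7B ASO replicate 4 moved the limma adjusted p to 0.0507, and leaving out any 1 of the other 5 libraries kept the call (the range over the 6 was 0.0238 to 0.0507). An antisense gene, AC073389.2, overlaps SYNPO2L on the opposite strand with a log2 fold change of -0.02 (limma adjusted p = 0.984). Strand use in counting is not stated, so reads in the shared stretch cannot be assigned with certainty.

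The promoter windows of the Z-disc genes were read from RefSeq sequences on GRCh38.p14, which reach from 250 bases before to 50 bases after an annotated start. Windows matched 7 of the 10 genes, with 12 starts in all. CSRP3, TCAP and DES had no entry. The windows below belong to SYNPO2L, the gene that fell most, and to MYOZ2 and LDB3, whose groups overlapped, because these 3 genes share a match. Capitals mark matches to the MEF2 form CTANNNNTAG, searched on both strands, and in LDB3 also a CArG box. MEF2 and the serum response factor, which binds the CArG box, are general regulators of muscle genes. The windows lie at chr10:73655980-73656279 (SYNPO2L, minus strand, within the longer GENCODE 29 span), chr4:119135582-119135881 (MYOZ2, plus strand) and chr10:86668261-86668560 (the first of 2 LDB3 starts, plus strand).
SYNPO2L: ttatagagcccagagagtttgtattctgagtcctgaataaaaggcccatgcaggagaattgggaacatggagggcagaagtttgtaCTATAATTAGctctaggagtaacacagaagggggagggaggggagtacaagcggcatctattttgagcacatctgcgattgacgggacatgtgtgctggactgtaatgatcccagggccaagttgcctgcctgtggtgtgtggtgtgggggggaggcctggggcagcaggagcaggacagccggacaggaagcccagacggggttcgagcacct
MYOZ2: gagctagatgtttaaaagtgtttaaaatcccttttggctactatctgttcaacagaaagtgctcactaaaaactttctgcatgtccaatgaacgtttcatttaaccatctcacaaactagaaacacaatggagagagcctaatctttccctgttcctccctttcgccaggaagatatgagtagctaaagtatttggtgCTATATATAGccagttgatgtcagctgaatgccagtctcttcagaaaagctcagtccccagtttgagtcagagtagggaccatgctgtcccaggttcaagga
LDB3: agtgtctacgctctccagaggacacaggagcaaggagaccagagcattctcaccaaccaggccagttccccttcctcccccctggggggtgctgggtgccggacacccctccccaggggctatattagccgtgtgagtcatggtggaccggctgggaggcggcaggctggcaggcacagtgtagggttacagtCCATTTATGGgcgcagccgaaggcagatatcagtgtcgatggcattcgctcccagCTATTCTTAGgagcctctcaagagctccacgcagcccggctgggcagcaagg

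The MEF2 form began at -164 in SYNPO2L, -52 in MYOZ2 and -2 in the first LDB3 window, counted from the annotated start. It occurs in 2.73% of 35116 RefSeq promoter windows of the same length. With only A or T allowed in its middle, it was still matched in SYNPO2L and MYOZ2 but not in LDB3, against 0.572% of all windows. The M-CAT form CATTCC, bound by TEAD factors, occurs in 14.0% of windows and among the members only in FLNC. The GATA form AGATAA (10.3% of windows) was matched only at the fifth NEBL start, and the CArG box (1.29% of windows) only in LDB3. The MEF2 match was thus shared by the gene that fell and by genes that did not pass the test. A match is a run of letters and shows no binding.

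The cross-linkers and the desmin filament gene were next. ACTN2 encodes muscle alpha-actinin, the main actin cross-linker of the Z-disc (chromosome 1, positions 236686454 to 236764631). Its level was 201.6, 224.5 and 174.2 TPM with the scrambled ASO and 150.9, 129.3 and 148.5 TPM with the MYH7B ASO. The groups did not overlap, and the means were 200.1 ± 25.2 and 142.9 ± 11.8 TPM (SD, n = 3). The log2 fold change of -0.48 had a 95% interval from -0.80 to -0.16 and did not pass over all genes (limma adjusted p = 0.156). For ACTN2 the authors' deposited table lists -0.38 (adjusted p-value 0.0971). FLNC encodes filamin C, the muscle filamin that links actin at Z-discs and at the membrane (chromosome 7, positions 128830377 to 128859274). Its level was 121.0, 135.4 and 90.8 TPM with the scrambled ASO and 111.1, 96.5 and 92.6 TPM with the MYH7B ASO. The lowest of the 6 values was a scrambled ASO library, and the log2 fold change of -0.19 had an interval from -0.59 to 0.20 (limma adjusted p = 0.638). Leaving out 1 library moved it between -0.07 (without scrambled ASO replicate 2) and -0.36 (without scrambled ASO replicate 3).

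DES encodes desmin, the intermediate filament protein that joins Z-discs side by side and that smooth muscle also makes (chromosome 2, positions 219418377 to 219426739). Its level was 304.8, 323.3 and 474.6 TPM with the scrambled ASO and 253.3, 271.6 and 289.9 TPM with the MYH7B ASO. Scrambled ASO replicate 3 stood well above the other libraries, and it also had the highest summed fibroblast (5173 TPM) and smooth muscle (1329.6 TPM) markers. Their part in its DES level was not tested. The DES log2 fold change was -0.41 with an interval from -0.82 to -0.0017 (limma adjusted p = 0.325). Leaving out scrambled ASO replicate 3 moved it to -0.21. The interval therefore reaches from a clear fall to almost no change.

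Among the PDZ-LIM and LIM adaptors, CSRP3 came closest to a call. It encodes muscle LIM protein, an alpha-actinin- and telethonin-binding protein (chromosome 11, positions 19182037 to 19210571). Its level was 375.8, 355.3 and 426.0 TPM with the scrambled ASO and 263.4, 254.9 and 250.0 TPM with the MYH7B ASO. The MYH7B ASO libraries were nearly equal, with an SD of 2.64% of their mean, and all lay below the scrambled ASO libraries. The log2 fold change was -0.59 with an interval from -0.86 to -0.31 and a limma adjusted p of 0.0555, just above the threshold. CSRP3 was called under 4 of 19 processing alternatives, and its adjusted p ran from 0.0311 to 0.722 over all 19. In the authors' deposited table CSRP3 is at -0.49 (adjusted p-value 0.00165). An antisense gene, AC009652.2, overlaps CSRP3 in GENCODE 29.

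LDB3 encodes ZASP (cypher), a PDZ-LIM protein that binds alpha-actinin (chromosome 10, positions 86668449 to 86736068). It had 88.9, 110.0 and 92.6 TPM with the scrambled ASO and 97.7, 85.0 and 70.0 TPM with the MYH7B ASO. The groups overlapped, and the log2 fold change of -0.21 had an interval from -0.58 to 0.16 (limma adjusted p = 0.588). Leaving out 1 library moved it between -0.09 (without MYH7B ASO replicate 4) and -0.32 (without MYH7B ASO replicate 2). PDLIM5 encodes ENH, a related PDZ-LIM protein that also brings protein kinase C to the Z-disc (chromosome 4, positions 94451857 to 94668227). It had 116.7, 120.4 and 109.9 TPM with the scrambled ASO and 126.4, 117.6 and 105.2 TPM with the MYH7B ASO. The means were 115.7 ± 5.34 and 116.4 ± 10.7 TPM (SD, n = 3), and the interval of the log2 fold change, -0.29 to 0.30, leaves room for changes of either sign.

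The genes that tie titin and calcineurin to the Z-disc showed no called change. TCAP encodes telethonin, the cap on the end of titin (chromosome 17, positions 39664187 to 39666555). It had 62.0, 79.8 and 100.9 TPM with the scrambled ASO and 104.0, 78.4 and 73.6 TPM with the MYH7B ASO. Both groups spread widely, and TCAP was the most variable of the 10 after DES in the scrambled ASO libraries, with an SD of 24.0% of the mean. Its log2 fold change was 0.09, with an interval from -0.39 to 0.56 (limma adjusted p = 0.883). MYOZ2 encodes myozenin 2 (calsarcin-1), which holds calcineurin at alpha-actinin (chromosome 4, positions 119135784 to 119187789). It had 131.6, 126.0 and 118.9 TPM with the scrambled ASO and 118.6, 112.6 and 121.4 TPM with the MYH7B ASO. The SD was 5.07% and 3.82% of the mean. The log2 fold change was -0.09, with an interval from -0.36 to 0.18 (limma adjusted p = 0.753).

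NEBL encodes nebulette, a nebulin-like protein that runs from the Z-disc along the actin filament, and from a distant start a shorter LIM protein (chromosome 10, positions 20779973 to 21174187). It had 86.9, 101.7 and 76.2 TPM with the scrambled ASO and 95.4, 70.6 and 82.1 TPM with the MYH7B ASO. The groups overlapped in most of their range, with a log2 fold change of -0.09 and an interval from -0.47 to 0.29 (limma adjusted p = 0.833). The 2 products of the gene cannot be separated in these values.

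**Figure D2:**
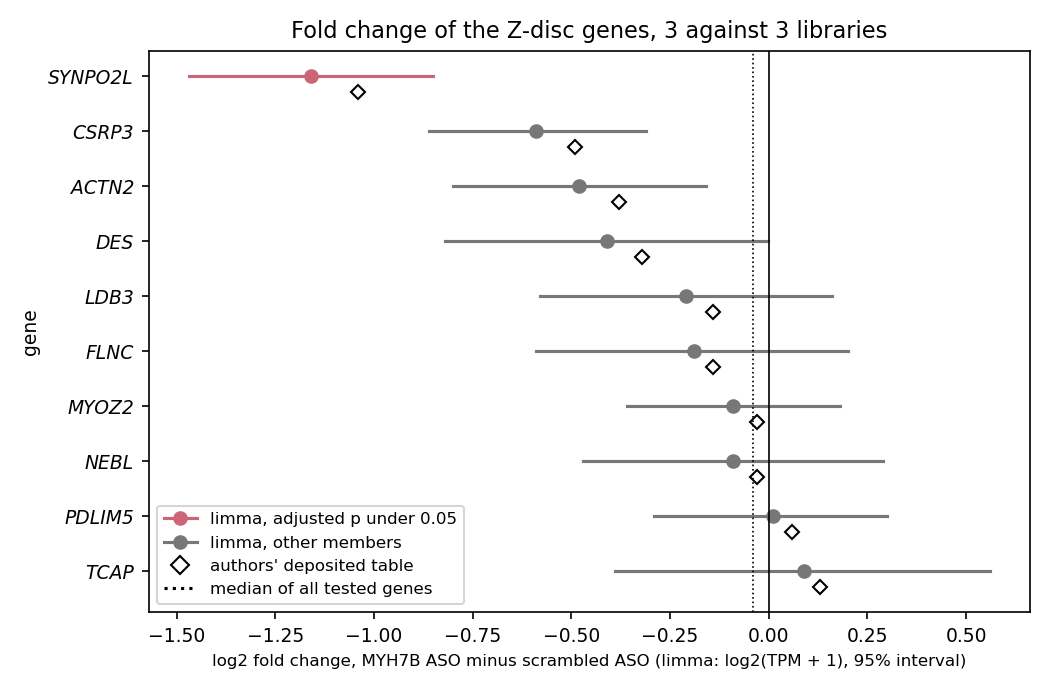
Log2 fold change (MYH7B ASO minus scrambled ASO, horizontal axis) of each gene, with circles and 95% intervals from limma on 3 against 3 libraries and open diamonds for the authors' deposited table. Red marks an adjusted p under 0.05 and the dotted line the median of all tested genes. SYNPO2L lies at -1.16 and the interval of CSRP3 ends at -0.31, while the intervals of LDB3, FLNC, MYOZ2, NEBL, PDLIM5 and TCAP cross 0.

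The order of the levels was similar in both groups. With the scrambled ASO, CSRP3 (385.7 ± 36.4 TPM, SD, n = 3) and DES (367.6 ± 93.1 TPM) were highest and overlapped. ACTN2 followed and overlapped neither DES above nor MYOZ2 (125.5 ± 6.36 TPM) below. From MYOZ2 downward through PDLIM5, FLNC, LDB3, NEBL, TCAP and SYNPO2L, each gene overlapped the next. With the MYH7B ASO, DES (271.6 ± 18.3 TPM) and CSRP3 (256.1 ± 6.77 TPM) led, and SYNPO2L was again lowest, here with its highest library (31.8 TPM) below the lowest NEBL library (70.6 TPM). Libraries within a group moved several genes at once. MYH7B ASO replicate 2 was highest of its group for 7 of the 10 genes and replicate 4 lowest for 6. Scrambled ASO replicate 3 was lowest for ACTN2, MYOZ2, NEBL, FLNC and PDLIM5 and highest for CSRP3, TCAP, SYNPO2L and DES.

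The summed level of the 10 genes was 1559.6, 1637.8 and 1736.5 TPM with the scrambled ASO and 1349.7, 1248.4 and 1261.8 TPM with the MYH7B ASO. The groups did not overlap, and CSRP3, DES and ACTN2, which had the highest means, weigh most in the sum. TCAP and PDLIM5 were at 105.5% and 100.6% of their scrambled ASO means, and 6 of the 10 genes had overlapping groups. The MYH7B ASO mean of the sum was 78.2% of the scrambled ASO mean. The summed cardiomyocyte markers stood at 85.9%. As a percentage of those markers, the 10 genes made up 9.15% to 9.55% with the scrambled ASO and 8.37% to 8.77% with the MYH7B ASO. When each library was scaled to equal summed cardiomyocyte markers, the median log2 fold change of all genes moved from -0.04 to 0.15. That sum includes ACTC1, itself called lower (-0.66, limma adjusted p = 0.0209), and MYL7 (-0.33, not called). The scaling and the percentage above are therefore not independent of the ASO. On that scale SYNPO2L remained called at -0.95 (limma adjusted p = 0.0272), against a range of 0.00372 to 0.72 over all 19 alternatives. CSRP3 was then at -0.37, ACTN2 at -0.26 and DES at -0.19. LDB3, FLNC, MYOZ2 and NEBL changed sign to 0.0053, 0.02, 0.12 and 0.12, so no direction is given for these 4.

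MYH7B ASO replicate 1, placed in the gene order of GENCODE 29, was lower than the other 3 MYH7B ASO libraries for 9 of the 10 genes, FLNC (110.2 TPM) being the exception. It had 22.2 TPM of SYNPO2L, 72.1 of ACTN2, 144.7 of CSRP3, 231.5 of DES, 20.2 of TCAP and 31.6 of MYOZ2, and 795.7 TPM over the 10 genes. It also differed from them in mitochondrially encoded genes, at 17.2% of TPM, and had fewer genes at 1 TPM or more (14823). Its summed cardiomyocyte markers were lower, at 12234 TPM, and its summed fibroblast (4069 TPM) and smooth muscle (1075 TPM) markers were higher than in replicates 2 to 4. The target MYH7B was at 1.29 TPM in replicate 1, also below the 5.65 to 9.30 TPM of replicates 2 to 4. The part of these in its Z-disc levels was not tested. In a limma fit over all 7 libraries SYNPO2L was again the only 1 of the 10 called, at -1.26 (adjusted p = 0.0132), where 0.967% of 15822 genes were called lower. ACTN2, CSRP3, SYNPO2L and DES were also the genes whose groups did not overlap over the 7 libraries, where all MYH7B ASO libraries lay below all scrambled ASO libraries for 10.2% of genes. TCAP moved from 0.09 to -0.42 and MYOZ2 from -0.09 to -0.56 with that library alone, and neither passed (limma adjusted p = 0.728 and 0.59). MYH7B itself was at -2.30 over the 7 libraries and was not called (limma adjusted p = 0.0525).

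**Figure D3:**
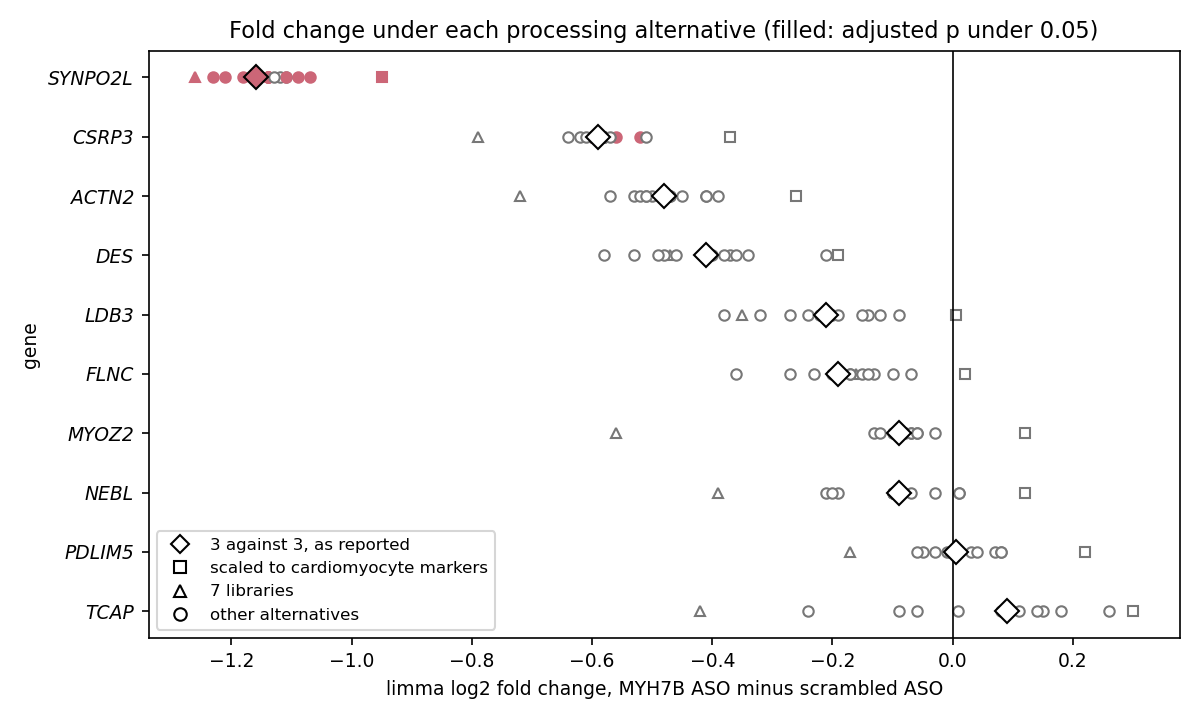
Limma log2 fold change (horizontal axis) of each gene in the reported comparison (diamond) and in 19 alternatives, with squares for scaling to cardiomyocyte markers and triangles for all 7 libraries, filled where the adjusted p was under 0.05. SYNPO2L, CSRP3, ACTN2 and DES stay below 0 under all 19, while the points of the other 6 genes lie on both sides of 0.

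Other genes of the Z-disc were read from a list of 54, of which 48 had a mean of at least 1 TPM. ACTN3, MYOT, NEB, NRAP, XIRP2 and ANKRD2, several of them typical of skeletal muscle, did not. Of the 48, 7 fell and none rose (1.48% and 0.181% of all tested genes), and 14 had an unadjusted limma p under 0.05, as did 15.2% of all tested genes. The MYH7B ASO libraries lay wholly below the scrambled ASO libraries for 17 of the 48 and wholly above for 2, against 14.1% and 7.11% of all tested genes. The median log2 fold change was -0.17.

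The largest fall was in ANKRD1, a strain-responsive ankyrin protein that binds titin near the Z-disc. It had 97.3, 56.4 and 116.3 TPM with the scrambled ASO and 20.3, 32.4 and 25.1 TPM with the MYH7B ASO (log2 fold change -1.72, limma adjusted p = 0.0251). SORBS2, an adaptor of Z-discs and adhesion sites, had 214.0, 172.7 and 168.8 TPM against 95.8, 88.0 and 81.9 TPM (-1.05, limma adjusted p = 0.0121). CMYA5 (myospryn), a large linker that binds desmin and alpha-actinin, went from 28.5 ± 5.02 to 12.5 ± 2.02 TPM (SD, n = 3; -1.12, limma adjusted p = 0.0300). None of these 3 had overlapping groups.

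In the PDZ-LIM and LIM list 2 of 11 were called lower, against 1.48% of all tested genes. The MYH7B ASO libraries lay wholly below the scrambled ASO libraries for 4 of the 11, against 14.1%. These included FHL1 (76.8% of its scrambled ASO mean) and FHL2 (67.6%), which were not called (limma adjusted p = 0.31 and 0.182). PDLIM1, a widely expressed relative of LDB3, had 123.4, 116.8 and 139.6 TPM with the scrambled ASO and 55.8, 64.0 and 55.1 TPM with the MYH7B ASO (log2 fold change -1.10, limma adjusted p = 0.00891). CSRP1, the smooth muscle and widely expressed relative of CSRP3, went from 89.4 ± 9.21 to 41.2 ± 6.85 TPM (SD, n = 3; -1.11, limma adjusted p = 0.0162). Summed smooth muscle markers were 59.1% and fibroblast markers 46.4% of their scrambled ASO means, although CNN1 (118.1%), PDGFRA (152.9%) and TCF21 (171.8%) had higher means, and their part in these falls was not tested. NEXN (nexilin), an actin-binding protein, went from 65.6 ± 3.66 to 38.5 ± 3.87 TPM (limma adjusted p = 0.0382). CRYAB (alpha-B-crystallin), a chaperone of desmin, went from 458.5 ± 39.6 to 281.5 ± 2.53 TPM (limma adjusted p = 0.0268).

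These calls were not equally firm. When each of the 6 libraries was left out in turn, PDLIM1 was called in 5 fits, SORBS2 in 4, CSRP1 and ANKRD1 in 2 each, CMYA5 in 1, and NEXN and CRYAB in 0. All 7 genes stayed lower under all 19 alternatives. Over all 7 libraries PDLIM1, SORBS2, CMYA5 and ANKRD1 stayed called. CSRP1, NEXN and CRYAB did not (limma adjusted p = 0.185, 0.0846 and 0.135). In the reordered replicate 1 CSRP1 was at 78.4 TPM, close to the lowest scrambled ASO library (78.8 TPM). In the alpha-actinin and filamin list none of 4 genes was called, and ACTN4 (134.5 ± 7.73 and 122.9 ± 5.63 TPM) and FLNA (125.6 ± 36.7 and 109.7 ± 11.6 TPM) had overlapping groups. Neither was any of the 4 tested genes of the myozenin, myotilin and palladin list called, although none had overlapping groups. MYOZ3 (-0.35), MYPN (-0.42) and PALLD (-0.16) lay wholly below the scrambled ASO libraries, as did 14.1% of all tested genes. MYOZ1 (0.40) lay wholly above, as did 7.11%. The actin-capping subunits CAPZA1, CAPZA2 and CAPZB had log2 fold changes of 0.08, -0.02 and -0.02, and the ubiquitin ligases TRIM54, TRIM55 and TRIM63 of 0.08, -0.02 and 0.19, all with overlapping groups.

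**Figure D4:**
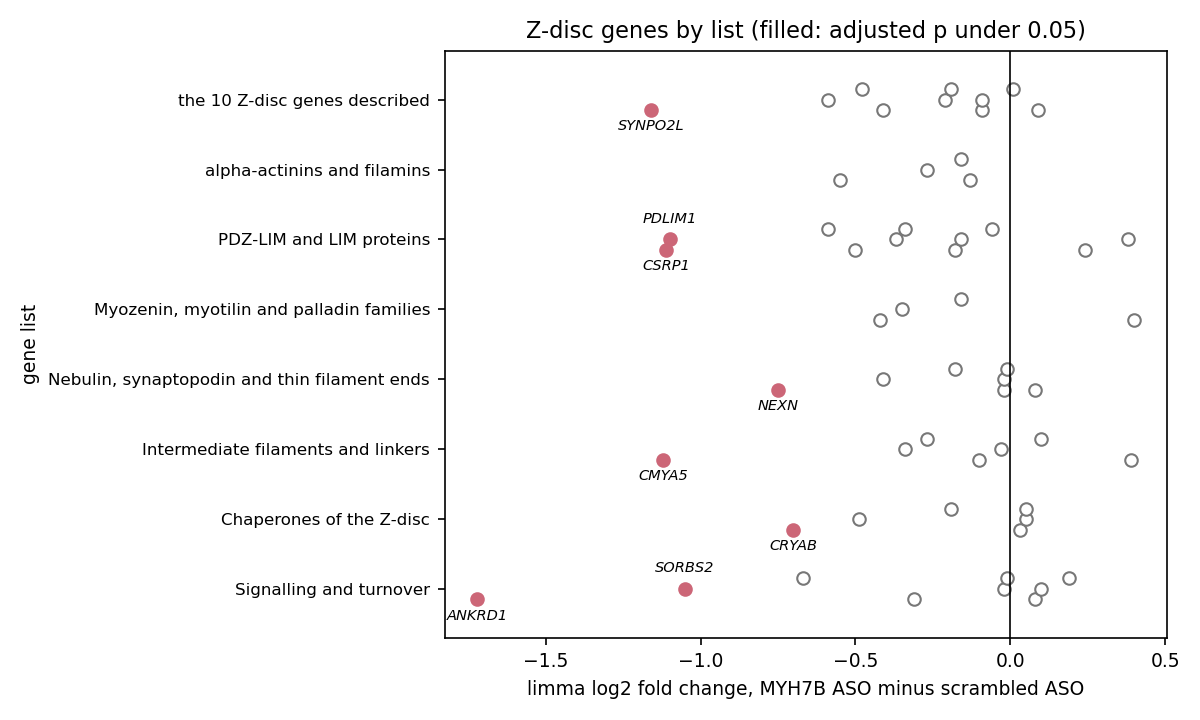
Limma log2 fold change (horizontal axis) of the 10 genes described and of 48 other Z-disc genes, 1 row per list and 1 point per gene, filled and named where the adjusted p was under 0.05. The 8 filled points lie between -1.72 (ANKRD1) and -0.70 (CRYAB), and no gene right of 0 is filled.

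Muscle forms were also set against related genes within each library, as log2 ratios of TPM, which do not depend on a common scaling factor. Of 13 such ratios, 5 had groups that did not overlap, 3 lower and 2 higher with the MYH7B ASO. No share over all gene pairs was computed. For single genes the shares were 14.1% and 7.11%, which are not a background for ratios of chosen pairs. Of the separate pairs, those with SYNPO2L, CSRP1 or PDLIM1 contain a gene that was itself called lower. SYNPO2L over SYNPO2, its broader relative, was 2.88, 2.53 and 2.88 with the scrambled ASO and 2.08, 2.10 and 1.91 with the MYH7B ASO. The gap of -0.73 shows that SYNPO2L was lower also relative to SYNPO2 (9.98 ± 0.551 and 7.29 ± 0.388 TPM).

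CSRP3 shifted against both of its relatives, in opposite senses. Its log2 ratio to CSRP2, a LIM protein of smooth muscle and developing heart, was 1.71, 1.49 and 1.40 with the scrambled ASO and 0.29, 0.50 and 0.91 with the MYH7B ASO. Its ratio to CSRP1 was 1.99, 2.17 and 2.17 against 2.79, 2.38 and 2.78. In the reordered replicate 1 the CSRP3 to CSRP1 ratio was 0.88, below every scrambled ASO library, so that direction rests on replicates 2 to 4. LDB3 over PDLIM1 went from -0.38 ± 0.26 to 0.52 ± 0.25 (SD, n = 3) with no overlap. MYOZ2 over MYOZ1, the form typical of fast skeletal muscle, went from 3.90 ± 0.12 to 3.37 ± 0.25 (SD, n = 3). The balance of ACTN2 to ACTN1 (1.28 ± 0.65 and 1.07 ± 0.25) and of FLNC to FLNA (-0.10 ± 0.69 and -0.13 ± 0.21) had overlapping groups, with wide spread in the scrambled ASO libraries.

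**Figure D5:**
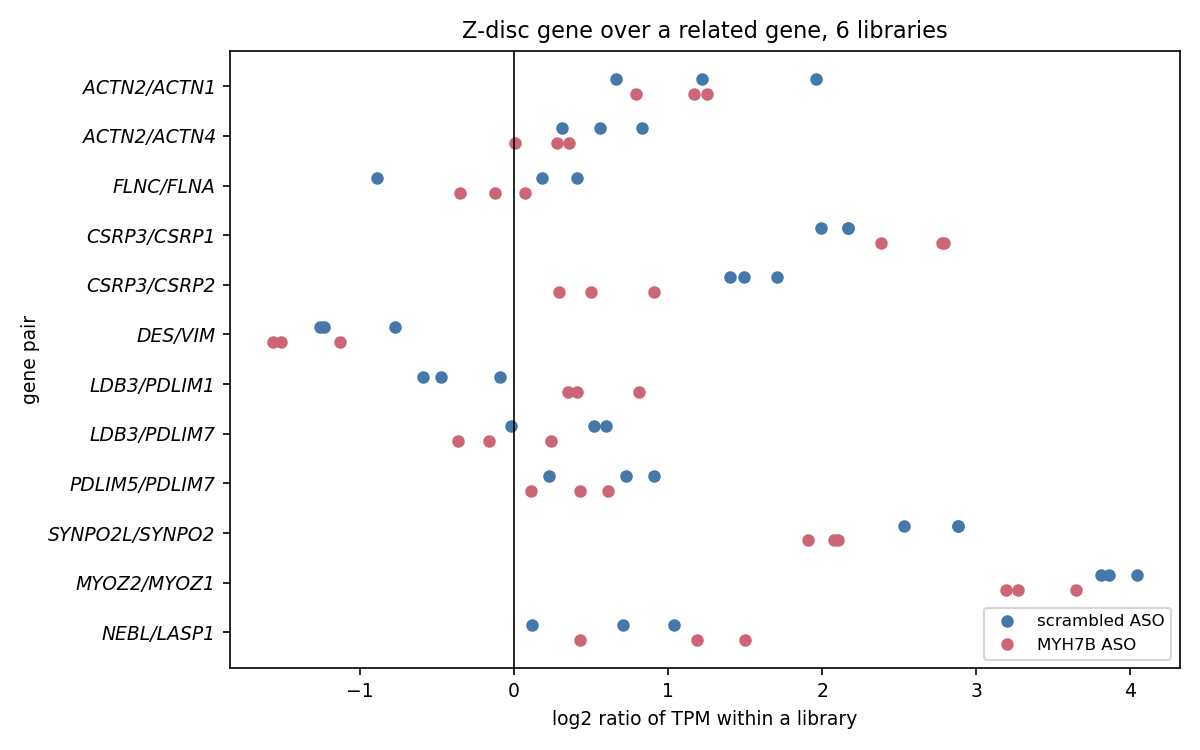
Log2 ratio of TPM within a library (horizontal axis) for 12 of the 13 gene pairs, 1 point per library, scrambled ASO in blue and MYH7B ASO replicates 2 to 4 in red. The groups are apart for CSRP3/CSRP1, CSRP3/CSRP2, LDB3/PDLIM1, SYNPO2L/SYNPO2 and MYOZ2/MYOZ1.

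MYOZ1 is also the nearest protein-coding neighbour of SYNPO2L, 3124 bases away on the same strand (chromosome 10, positions 73631654 to 73641757). It had 7.98, 8.70 and 8.47 TPM with the scrambled ASO and 9.44, 12.4 and 12.6 TPM with the MYH7B ASO. These MYH7B ASO libraries were above the scrambled ASO libraries, and the reordered replicate 1 (7.90 TPM) was not, with a log2 fold change of 0.40 that was not called (limma adjusted p = 0.329). On the other side AGAP5 was at -0.38 (limma adjusted p = 0.512), so of these 3 adjacent genes only SYNPO2L was called.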

How the data were processed

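Poly-A RNA of 7 libraries was measured. Values deposited by the authors are TPM, whose aligner, quantifier and annotation are not given in the sources used here. Genome build GRCh38.p13 and DESeq2 are listed in the submitters' processing notes. The authors' deposited comparison table holds a mean normalized count per gene (a signal), log2 fold changes, named as shrunken, with a standard error, a test score, and p-values. It does not say which libraries entered it.

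Here, TPM columns were matched by description label. The column of MYH7B ASO replicate 1 has 58721 values and 1513 empty positions. Assigned to the sorted GENCODE 29 identifiers, which are as many, its median correlation with the other libraries rose from 0.408 to 0.955. Log2(TPM + 1) values were fitted with limma 3.58.1 (lmFit, eBayes with trend, no covariate) in R 4.3.3 over genes whose mean reached 1 TPM, with Benjamini-Hochberg adjustment, and the fit was tested on simulated data. The residual degrees of freedom were 4. Fold changes on this scale understate low genes. An exact test of 3 against 3 libraries cannot go below 0.1 and was not used. Tables and plots used Python 3.11.15 with pandas 2.3.3, numpy 2.4.6 and matplotlib 3.10.9.

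The 10 genes, the gene lists and the tests were chosen with earlier results of these data known. The genes named were the 10, MYH7B, called genes of the list of other Z-disc genes and the relatives used in ratios. Neighbours, marker genes and uncalled list genes were named after their values were seen. Alternatives were other pseudocounts (0.1 and 5), filters (mean above 0 or at least 5 TPM), scalings, variance settings, replicate blocks, all 7 libraries, and each library left out. The values of 1 related gene are not reported here.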

Additional observations from a re-analysis of the deposited data

Results flagged for a closer look

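Among the 4 MYH7B ASO libraries, with replicate 1 reordered, 11 measures (the 10 Z-disc genes and MYH7B) were screened for a single deviating library, and 2 contained one. Chance gives about 1 in 20 for unrelated measures, but these 11 come from the same 4 libraries, so that rate is no yardstick here. Both deviating values were in replicate 1, which was the lowest MYH7B ASO library for 9 of the 10 genes. CSRP3 had 144.7 TPM there, against 250.0 to 263.4 TPM in the other 3 libraries. MYOZ2 had 31.6 TPM there, against 112.6 to 121.4 TPM in the others. This library stood outside the comparisons of 3 against 3, and its share of mitochondrially encoded genes (17.2%) also lay apart. The part of that share in these levels was not tested.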

How the results depend on the processing

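Of the 10 Z-disc genes, 1 was called in the reported comparison and in most alternatives. The count was 2, with CSRP3 added, with a minimum mean of 5 TPM, median-ratio rescaling, quantile normalisation or mitochondrially encoded genes removed, and 0 to 1 when a library was left out (0 without MYH7B ASO replicate 4). Of the other Z-disc genes 7 were called. The count was 4 over 7 libraries, 1 with a mean above 0 TPM, 4 with cardiomyocyte marker scaling, 1 without the trend in limma, and 0 to 4 with a library left out (0 without MYH7B ASO replicate 4, and at most 4 without any other). Over all genes 265 were called (236 lower), against 314 (149 lower) with cardiomyocyte marker scaling, 170 over 7 libraries, 40 with a mean above 0 TPM, 150 without the trend, and 53 (without MYH7B ASO replicate 4) to 149 (without scrambled ASO replicate 2) with a library left out. Fits with a library left out hold fewer samples; for the other settings the cause was not tested.

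With a replicate block by title or by description number, 0 genes were called in all 3 counts (1718 and 1096 genes over all at an unadjusted limma p under 0.05, and 4 and 2 of the 10). Only 2 pairs then carry the comparison, with 1 residual degree of freedom, and SYNPO2L kept log2 fold changes of -1.11 and -1.12. Same-numbered libraries had deviations correlated at 0.08 and 0.11 by title and -0.07 and -0.04 by description. The title values were the highest among all pairs across the groups, whose other values ran from -0.07 to 0.04. No label says that numbers pair cultures, and pairing was not tested.

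Some uncalled genes changed sign. TCAP (0.09) was at -0.42 over 7 libraries, -0.24 with the description block, and -0.09 to 0.26 with a library left out. PDLIM5 (0.01) was at -0.17 over 7 libraries, -0.01 with quantile normalisation, -0.05 with the description block and -0.06 to 0.08 with a library left out. NEBL (-0.09) was at 0.12 with cardiomyocyte marker scaling and -0.20 to 0.01 with a library left out. With that scaling LDB3 was at 0.0053, MYOZ2 at 0.12 and FLNC at 0.02. The cause was not tested.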

Other observations

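Genes beside the other Z-disc genes were found by position in GENCODE 29, and those named were picked after their values were seen. STARD3 and PNMT flank TCAP at 703 and 1426 bases, with limma log2 fold changes of 0.24 and 0.23, and neither was called (adjusted p = 0.639 and 0.846). SPEG, a muscle kinase gene that follows DES at a distance of 8107 bases on the same strand, had 93.3 ± 24.2 TPM with the scrambled ASO and 84.7 ± 7.11 TPM with the MYH7B ASO (SD, n = 3), at -0.11 (limma adjusted p = 0.852). MTR, next to ACTN2, was at -0.16 (limma adjusted p = 0.733). The antisense genes FLNC-AS1 and NEBL-AS1 had means of at most 0.515 TPM in either group, and C10orf113, which lies inside NEBL on its strand, was listed at 0 in all 6 libraries. The nearest protein-coding gene listed on one side of NEBL, PLXDC2, lies 490117 bases away and had 7.49 ± 0.906 and 3.26 ± 0.709 TPM (SD, n = 3), and was not called (limma adjusted p = 0.0669).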
